A study of Mus musculus with 12 samples.

Results

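The features described here are the 228 array probes, of 25030 in the authors' value table, that read higher in footpad skin of beta-catenin knockout embryos than of wild-type embryos at every stage sampled. They were selected on the knockout minus wild-type differences of that table, each taken between the means of the 2 arrays of a genotype on 1 embryonic day. A feature was a member when each of the 3 differences was 0.05 or higher on the log10 scale, which is 1.12-fold, and their mean was at least 1.5-fold, which is 0.58 on the log2 scale. Those differences are therefore given as a description, with no test. The mirror rule, with the same limits below 0, was met by 308 features.

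The study hybridised total RNA from frozen footpad skin of C57BL/6 embryos to 12 arrays with 2 colours, 2 arrays for each of 6 groups. Knockout groups carried a skin-specific loss of beta-catenin and were sampled on embryonic days E15.5, E16.5 or E17.5, and wild-type groups were sampled on the same days. The labels name no treatment, and the Cre driver of the knockout and the alleles of the wild type are not given in the sources used here. Footpad RNA carried Cy3 on every array, and Cy5 carried a common reference, RNA pooled from 11 cultured mouse cell lines and mixed 2:1 with RNA of a 129 embryonic stem cell line. Dyes were not swapped.

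Beta-catenin links cadherins to the actin skeleton at cell contacts and carries the canonical Wnt signal into the nucleus, where it acts with TCF and LEF factors on target genes. In embryonic skin, epithelial Wnt signalling through beta-catenin is needed for the placodes from which hair follicles and other appendages form. In mouse feet the eccrine sweat glands arise as buds of the footpad epidermis late in gestation, and Eda and Shh signals act in the same epithelium. A probe that reads higher in the knockout can report more RNA per cell or a larger share of the cells that hold it, and in bulk skin these cannot be told apart.

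The members have no gene names here, because 0 of the 42006 probes carry a symbol or a position in the files and 0 of the members' codes were found in the gene table used. The level of the targeted transcript, the Wnt, Eda, Shh and Bmp gene lists and the cell type markers were not analysed here, so neither the genotype labels nor the tissue were checked against genes. Each member is identified by the manufacturer's code and its 60 designed bases. The 10 members with the highest mean difference are written below from 5′ to 3′ as deposited, since they carry the widest knockout to wild-type gaps in the authors' values. Capitals mark AATAAA or ATTAAA, the hexamers of a polyadenylation signal.
Z00043839-1: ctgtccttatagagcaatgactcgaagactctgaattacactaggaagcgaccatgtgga
Z00026847-1: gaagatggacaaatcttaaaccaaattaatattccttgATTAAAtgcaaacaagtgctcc
Z00056369-1: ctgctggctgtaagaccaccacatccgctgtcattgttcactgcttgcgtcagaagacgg
Z00070204-1: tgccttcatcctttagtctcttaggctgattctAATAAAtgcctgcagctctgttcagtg
Z00060128-1: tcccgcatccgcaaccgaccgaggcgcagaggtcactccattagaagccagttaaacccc
Z00052349-1: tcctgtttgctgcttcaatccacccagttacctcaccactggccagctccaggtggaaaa
Z00043084-1: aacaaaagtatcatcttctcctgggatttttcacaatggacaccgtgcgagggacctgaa
Z00011465-1: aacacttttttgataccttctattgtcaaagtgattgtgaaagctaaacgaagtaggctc
Z00031304-1: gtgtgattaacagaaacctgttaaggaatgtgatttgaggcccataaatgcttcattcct
Z00023605-1: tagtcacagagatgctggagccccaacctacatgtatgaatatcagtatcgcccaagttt

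The 2 pairs below overlap in sequence and were read on all arrays, so each pair gives 2 readings of overlapping sequence. The first probe of each pair is a member and the second is not, and capitals here mark the shared stretch, which ends the first probe and opens the second.
Z00045122-1: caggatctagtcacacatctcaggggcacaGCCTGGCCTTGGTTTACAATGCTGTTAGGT
Z00006580-1: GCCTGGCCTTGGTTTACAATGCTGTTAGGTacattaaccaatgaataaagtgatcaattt
Z00076450-1: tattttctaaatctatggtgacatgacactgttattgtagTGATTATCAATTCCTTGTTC
Z00057509-1: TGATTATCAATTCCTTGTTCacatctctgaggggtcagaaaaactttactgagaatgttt

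Most members were dim in the footpad channel. Of the 228, 60 (26.3%) gave a Cy3 signal well above background on all 12 arrays, against 60.8% of the 25030 features and 55.5% of the 308 features of the mirror rule. Another 110 members (48.2%) were read on 2 to 11 arrays, a class that held 14.3% of all features. The last 58 members (25.4%) were read on 0 or 1 array, 31 of them on none, and this class held 25% of all features, close to the members' share, and 7.14% of the mirror features. Members made up 0.395 of every 100 features read on all arrays and 3.08 of every 100 read on 2 to 11 arrays. No member had a spot saturated in Cy3, and saturation in Cy5 was not counted.

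Detection differed between genotypes among the members, a measure that shares the contrast of the rule and is given as a description. More knockout than wild-type arrays read well above background in 125 members (54.8%, against 8.30% of all features), equal numbers in 100 (43.9%, against 86.0%) and fewer in 3 (1.32%, against 5.67%). All 6 knockout arrays read 86 members, and all 6 wild-type arrays read 60. A single member, Z00043839-1, was read on all 6 knockout arrays and on no wild-type array.

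The size of the differences depended on the processing. In the authors' table the median mean difference of the 228 members was 0.75 on the log2 scale, while in ratios rebuilt from the scanner signals it was 0.18. The rebuilt ratios are log2 of footpad over reference after normexp background correction with an offset of 50, which draws dim spots towards 0, and loess normalization within each array, and are called loess ratios here. Among the 60 members read on all arrays the medians were 0.68 and 0.50. Among the 110 read on 2 to 11 arrays they were 0.80 and 0.18, and among the 58 read on 0 or 1 array they were 0.72 and 0.08. The 2 processings lay closer for members read on all arrays than for the others. In the authors' table some dim members repeated the same log10 value across arrays. Z00033477-1 stood at 1.0391 in every wild-type column, and Z00044420-1 at 1.0508 in most columns. How many members did so was not counted, and its effect on the differences was not tested.

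**Figure D1:**
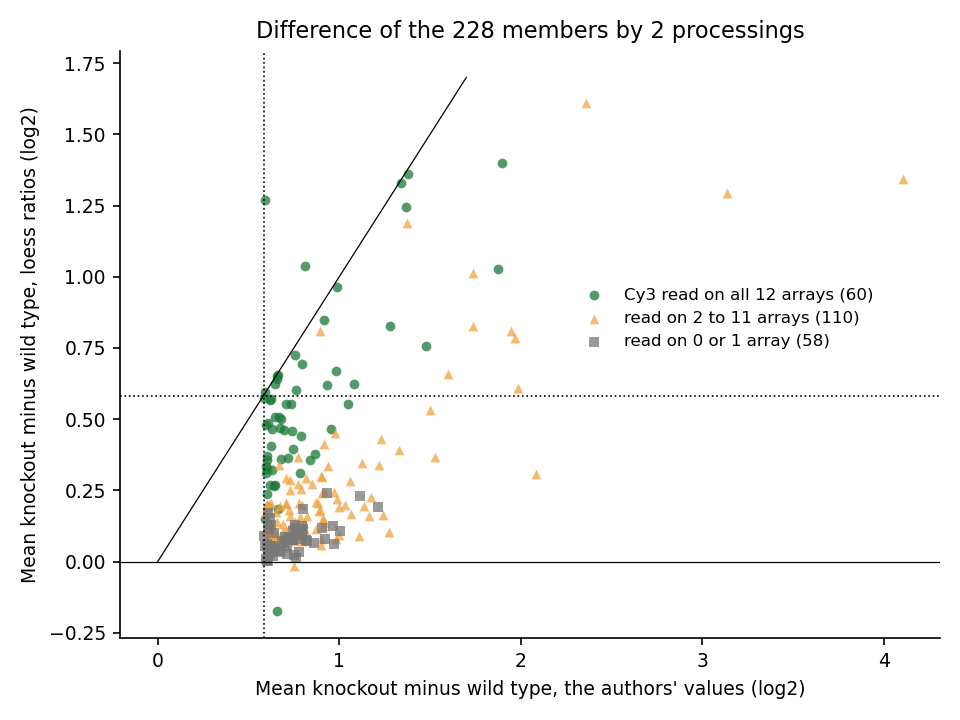
Each point is 1 of the 228 members; the x axis gives its mean knockout minus wild-type difference in the authors' values and the y axis the same in loess ratios, both on the log2 scale. Dotted lines mark the limit of the rule on the mean (0.58), the diagonal marks equal differences, and colours mark the number of arrays on which Cy3 was well above background; the 58 members read on 0 or 1 array all lie under the horizontal dotted line.

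With loess ratios the limits of the rule were met by 36 features (0.144% of the 25030), and 31 of these were members. With Agilent's processed log ratios 264 features met them, 216 of them members, and with median centring 17. Of the 31 members that met them with loess ratios, 20 were read on all 12 arrays, 11 on 6 to 11 arrays and 0 on fewer. Among the 15208 features read on all arrays, 25 (0.164%) met the limits with loess ratios. A loess difference below 0 at some stage was seen in 75 members, of which 4 were read on all arrays, 34 on 2 to 11 and 37 on 0 or 1.

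In the authors' values both knockout arrays lay above both wild-type arrays at all 3 stages in 104 of the 228 members, against 3.26% of all features. With loess ratios this held for 69 of the 228, against 3.61% of all features. Of the 60 members read on all arrays it held for 46 in the authors' values, beside 4.75% of the features read on all arrays, and for 39 in loess ratios, beside 5.25%. Since the rule used this contrast, these counts carry no test. Stage by stage, both knockout arrays lay above both wild-type arrays in loess ratios in 47 of the 60 at E15.5 (26.3% of features read on all arrays). This held in 51 at E16.5 (23.7%) and in 57 at E17.5 (34.0%).

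The highest mean difference belonged to Z00043839-1, with a mean of 17.2-fold in the authors' values and 13.4, 15.6 and 24.4-fold on the 3 days in order. Its loess ratios in knockout were 0.79 and 0.53 at E15.5, 1.28 and 1.08 at E16.5, and 1.29 and 1.31 at E17.5. In wild type they were -0.24 and -0.17, -0.32 and -0.18, and -0.45 and -0.43 on the same days. The groups did not overlap at any stage, and no wild-type array read it well above background, so its wild-type level is only a bound. The knockout level was at least 1.55-fold above the lowest well-measured signal at E15.5, at least 2.48-fold at E16.5 and at least 2.48-fold at E17.5. These bounds set the knockout mean against, per wild-type array, the higher of the probe's own signal and the lowest signal of any probe well above background.

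Z00026847-1 came next, at 8.80-fold in the mean of the authors' values. It read 3.00 and 2.78 in knockout and 1.28 and 0.98 in wild type at E15.5, where all 4 arrays were well above background. At E16.5 it read 1.55 and 1.26 against 0.26 and 0.30, and at E17.5 1.24 and 1.54 against 0.43 and 0.37. Within each stage both knockout arrays lay above both wild-type arrays. Wild type was not well above background at the later stages. There the knockout was at least 1.92-fold higher at E16.5 and at least 1.88-fold at E17.5. The authors' table gave this probe 19-fold at E17.5, where both wild-type columns stood at 1.00 on its log10 scale.

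Z00056369-1 had the highest mean loess difference of all members, 1.61. It read 1.48 and 1.73 in knockout and 0.50 and -0.07 in wild type at E15.5, and 1.16 and 0.84 against 0.11 and 0.17 at E16.5. At E17.5 knockout read 3.70 and 3.46 against 1.27 and 0.72 in wild type, a 5.99-fold difference of means. In loess ratios the gap was widest at E17.5, while the authors' values gave 6.399-fold at E15.5 and 5.97-fold at E17.5. The groups were apart at each stage. Z00023605-1 differed by 0.24 and 0.59 before E17.5 and by 2.21 on that day, with 2.25 and 2.10 in knockout against -0.01 and -0.05 in wild type on the last day.

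Z00043084-1 read 1.31 and 1.56 in knockout and -0.27 and -0.14 in wild type at E17.5, at least 2.77-fold, with wild type not well above background. At E15.5, where wild type was again not well above background, it read 0.12 and 0.29 against -0.18 and -0.22, at least 1.27-fold, and at E16.5 0.17 and 0.08 against -0.26 on the single wild-type array left, because the spot of wild-type replicate 1 was marked as an outlier and dropped. Z00060128-1 read 0.97 and 1.02 in knockout against 0.04 and 0.03 in wild type at E16.5, where all 4 arrays were well above background. No wild-type array read it well above background on the other days, where knockout was at least 1.26-fold higher at E15.5 and at least 1.33-fold at E17.5. The authors' values for it were 2.76, 3.52 and 6.42-fold in order of stage. Z00052349-1 read 0.92 and 1.08 against -0.18 and -0.50 at E15.5 and differed by 0.59 and 0.42 on the later days, with 1 of 2 wild-type arrays well above background at E15.5 and at E17.5. In loess ratios knockout and wild type did not overlap at any stage in these 3 probes, for Z00043084-1 at E16.5 without the dropped array. In the authors' log10 values that wild-type array (2.08) lay above knockout replicate 2 (1.95) at E16.5, so the groups overlapped there.

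Z00070204-1 shows how far the processings part for a dim probe. The authors' values gave it 8.39, 2.54 and 3.58-fold at the 3 stages. In loess ratios it read 0.59 and 0.60 in knockout against 0.07 and 0.02 in wild type at E15.5, 0.19 and 0.17 against 0.01 and 0.06 at E16.5, and 0.16 and 0.35 against 0.03 and 0.02 at E17.5. The groups were apart at each stage, but the mean loess difference was 0.31, under the limit of 0.58, and no wild-type array read it well above background.

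**Figure D2:**
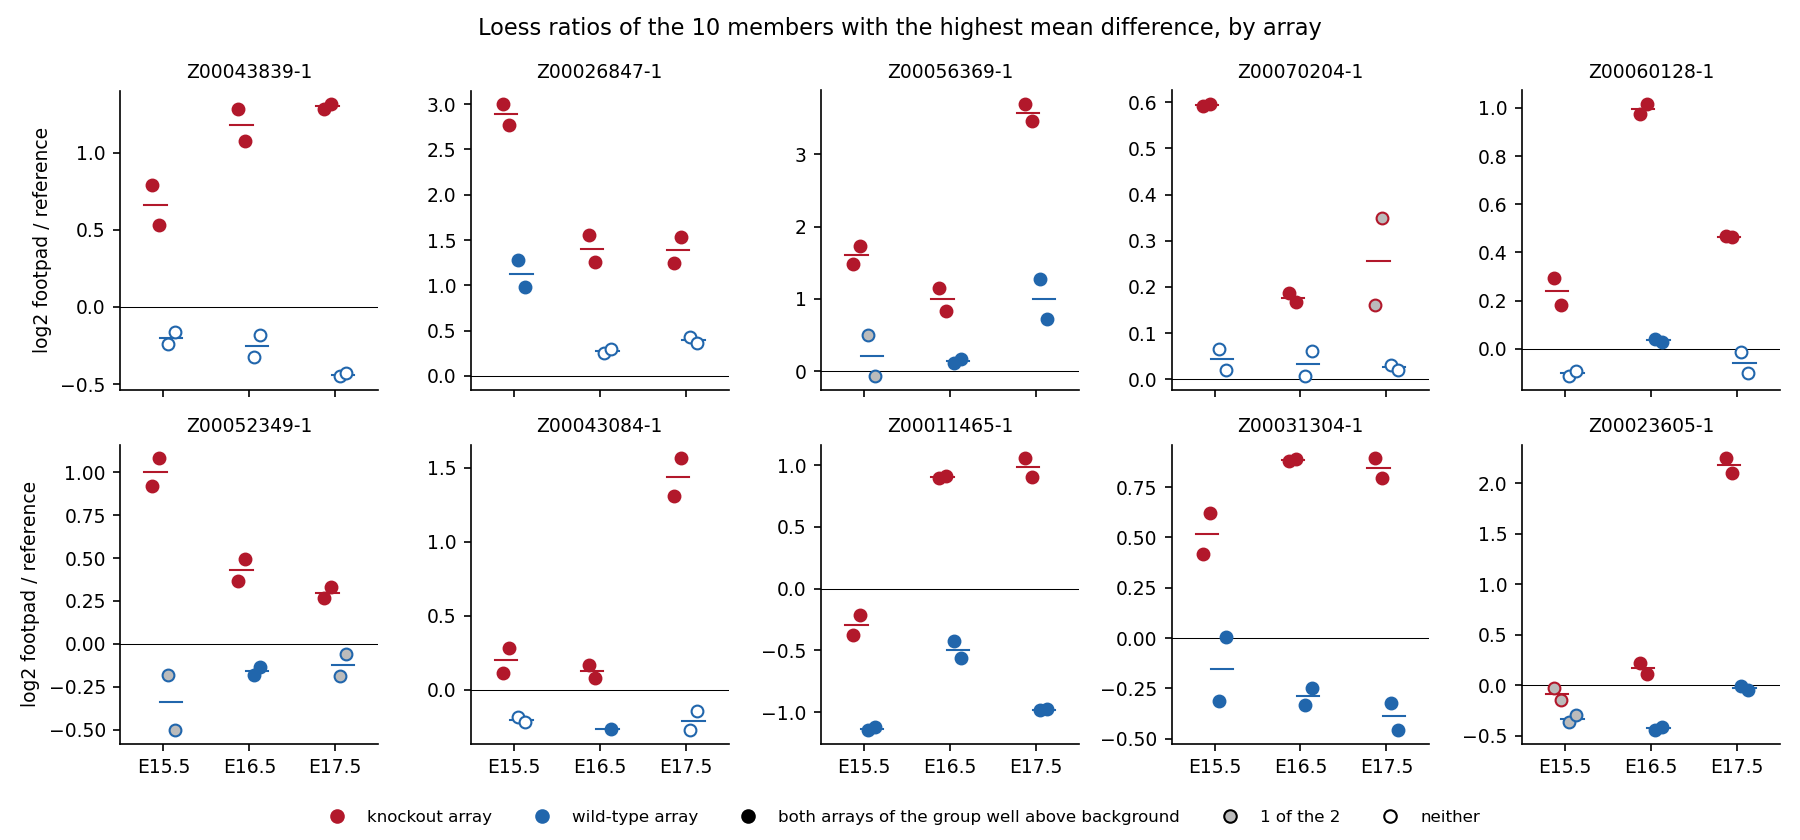
Loess ratios (log2 footpad over reference) of the 10 members with the highest mean difference in the authors' values, by stage, 1 point per array and a bar at each group mean; each panel has its own y scale. Red points (knockout) lie above blue points (wild type) at every stage in all 10 panels, with 1 wild-type point of Z00043084-1 at E16.5 dropped as an outlier. Open points mark groups of which neither array was well above background, as for Z00043839-1 in wild type at all 3 stages.

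The 60 members read on all 12 arrays give differences between measured levels on both sides. Their median loess difference was 0.48 and 0.44 on the first 2 days and 0.61 on the last, beside medians of 0.01, -0.00 and 0.01 over the 15208 features read on all arrays. The differences of these 60 members ran from -0.57 to 1.65 at E15.5, from -0.61 to 1.55 at E16.5 and from 0.09 to 1.96 at E17.5. The mean loess difference was 1.5-fold or more in 22 of them and 2-fold or more in 7. The median SD of the 2 arrays of a group ran from 0.07 to 0.18 over the 6 groups.

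Z00011465-1 had the highest mean loess difference of the 60, 1.40. It read -0.37 and -0.21 in knockout and -1.14 and -1.12 in wild type at E15.5. At E16.5 the values were 0.90 and 0.91 against -0.43 and -0.56, and at E17.5 1.06 and 0.91 against -0.99 and -0.98. The difference was 0.84, 1.40 and 1.96 over the 3 days, and both genotypes were higher at E16.5 than at E15.5. Z00031304-1 differed by 0.67, 1.18 and 1.23, with knockout between 0.42 and 0.89 and wild type between -0.46 and 0.01 over all stages, so that the lowest knockout array lay above the highest wild-type array.

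Among brighter members, Z00075857-1 (mean Cy3 level 11.8 on the log2 scale) read -0.06 and -0.32 in knockout and -1.11 and -1.35 in wild type at E15.5. At E16.5 it read 0.49 and 0.56 against -1.02 and -1.03, and at E17.5 0.70 and 0.67 against -1.21 and -0.41. Knockout lay above wild type at each stage, with wild type spread widely at E17.5 (SD 0.57). Z00048440-1 differed by 1.47, 1.36 and 1.16, with knockout between 2.50 and 2.86 and wild type between 0.81 and 1.83 over all arrays. Z00005714-1 differed by 1.02, 1.32 and 1.39, and its arrays of 1 group also spread widely, as with 2.74 and 1.87 in knockout at E15.5.

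Z00033785-1 was the member highest over the reference, with a mean ratio of 6.92 on the log2 scale. Knockout read 8.10 and 8.22 at E15.5, 7.42 and 7.48 at E16.5, and 6.90 and 7.23 at E17.5. Wild type read 6.27 and 6.76, 6.22 and 6.82, and 5.59 and 6.08 on those days. The mean loess difference was 1.27, whereas the authors' values gave 1.13-fold at E16.5 and a mean of 1.504-fold, which placed it at rank 226 of the 228. In the same loess values the Cy5 channel, which holds the common reference, read 0.64, 1.91 and 0.83 higher in knockout for this spot. The ratio is Cy3 over Cy5, so the higher Cy5 made the loess difference smaller, and its cause was not tested.

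Z00020778-1, next in level over the reference at 3.80 after Z00074490-1, differed by 0.46, 1.18 and 1.47. Its knockout arrays stayed between 4.17 and 4.46 over the stages. Its wild-type arrays read 3.77 and 3.94 at E15.5, 3.04 and 3.40 at E16.5 and 2.69 and 2.87 at E17.5. Z00074490-1, at 5.10, read 5.37 and 6.29 in knockout against 4.78 and 5.45 in wild type at E15.5, so its groups overlapped on that day, and differed by 0.63 and 0.44 later. Z00022566-1 differed by 0.52, 0.95 and 1.08, and Z00076265-1 by 0.91, 0.62 and 1.36 with wild type spread from -1.84 to 0.02. The difference was highest at E17.5 in 33 of the 60 members, at E15.5 in 19 and at E16.5 in 8.

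A few members read on all arrays did not keep their direction in loess ratios. Z00051539-1 read 2.19 and 3.46 in knockout against 3.29 and 3.50 in wild type at E15.5, and 2.12 and 1.86 against 2.47 and 2.73 at E16.5, where knockout was the lower group. At E17.5 it read 1.68 and 1.75 against 1.08 and 1.02, with knockout higher. The authors' values for the same arrays gave 1.37, 1.52 and 1.88-fold higher in knockout. Z00023185-1 at E15.5 (-0.16), Z00029205-1 at E15.5 (-0.04) and Z00026548-1 at E16.5 (-0.00) were the other members of the 60 with a loess difference below 0.

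**Figure D3:**
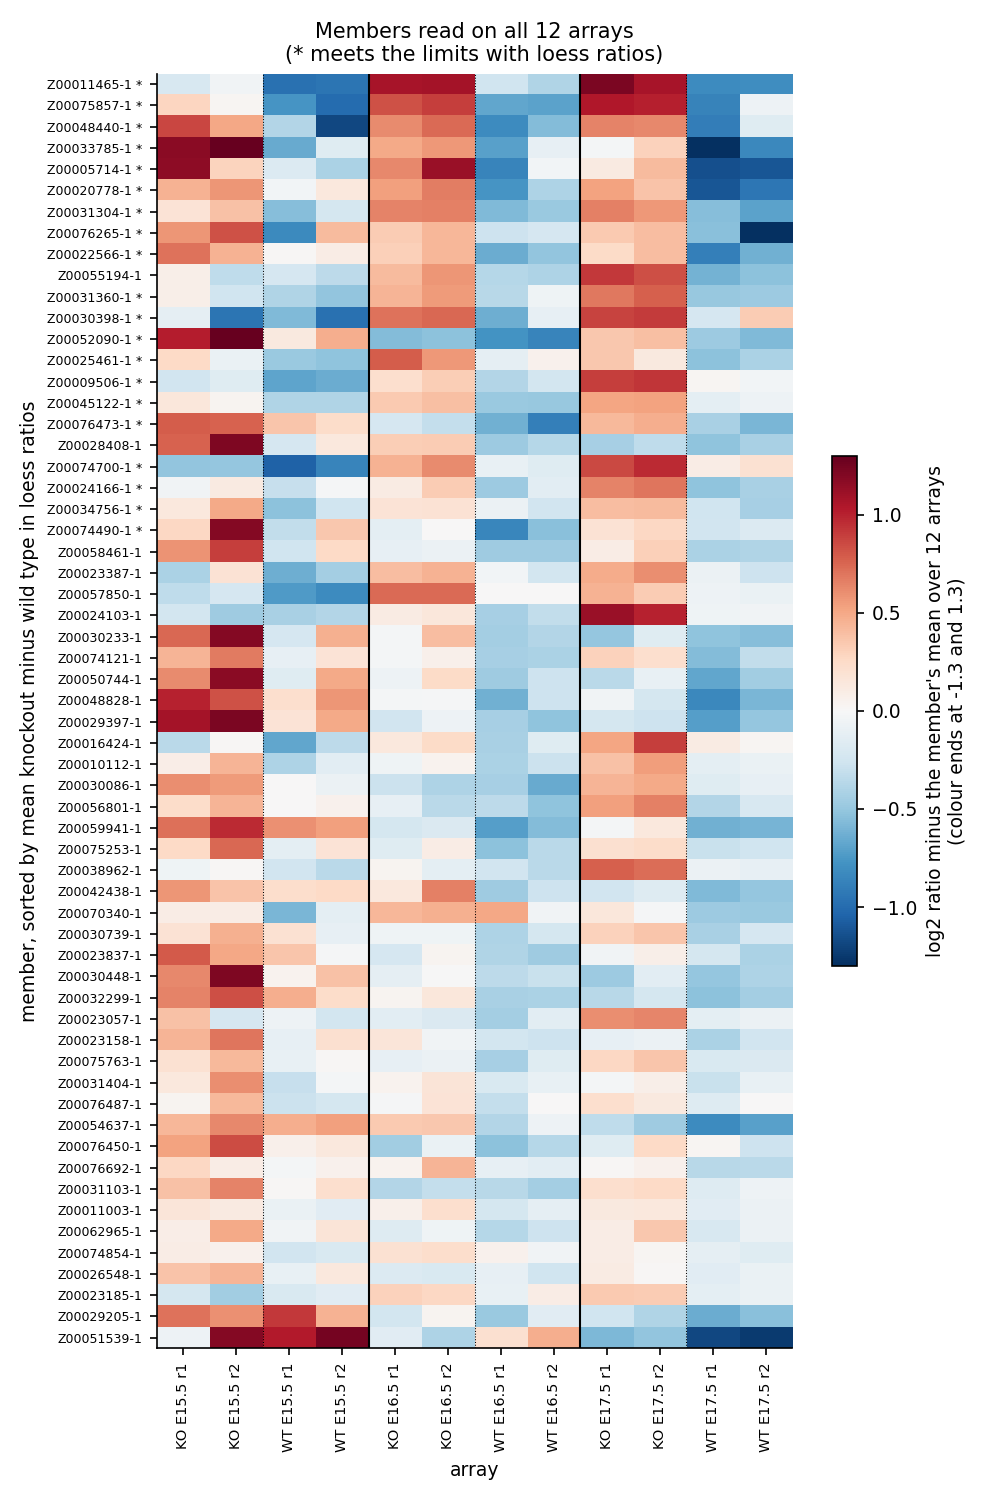
Loess ratios of the 60 members read on all 12 arrays, each minus the member's mean over the arrays, with 1 column per array grouped by stage and genotype and 1 line per member sorted by mean difference; red is above and blue below the member's mean, and the colour scale is cut at both ends. Knockout columns are redder than wild-type columns at each stage for most members, with Z00051539-1 in the last line as an exception, and stars mark the 20 members that meet the limits with loess ratios.

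At the median, most of the difference between genotypes lay in the footpad channel. With each channel taken alone after loess and between-array scaling, the median Cy3 difference of the 228 members was 0.19, 0.12 and 0.17 in order of stage. The median Cy5 difference, which compares the same reference RNA, was -0.03, -0.01 and -0.02. Single spots went further, with Cy5 differences from -0.35 to 0.64, from -0.44 to 1.91 and from -0.51 to 0.83 on the 3 days. Over all features the Cy5 medians were -0.005, 0.010 and -0.007, so the members' medians were slightly lower on each day. All features ranged in Cy5 from -1.88 to 2.62, from -2.87 to 1.91 and from -1.59 to 2.31.

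The level over the reference was not used by the rule. Its median was 0.01 over the 228 members and 0.00 over all features, on the log2 scale. Members lay at least 2-fold above the reference in 21 cases (9.21%, against 14.5% of features) and at least 2-fold below it in 33 (14.5%, against 13.2%). Of the 60 members read on all arrays, 17 (28.3%) lay at least 2-fold above and 8 (13.3%) at least 2-fold below, against 23.4% and 18.3% of features read on all arrays. The lowest ratios were those of Z00016647-1 (-4.63), Z00031231-1 (-4.52) and Z00050391-1 (-3.76), all dimmer in footpad than in the reference on every array. Their footpad signal was well above background on 10, 1 and 6 of the 12 arrays, so the last 2 ratios are only bounds with no order between them.

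Change between stages, averaged over both genotypes, is independent of the differences that chose the members only where both genotypes spread equally. Over features read on all 12 arrays, the median group SD was 0.14 in knockout and 0.09 in wild type at E15.5. At E16.5 it was 0.06 and 0.09. How far the choice of members moved their stage steps was not tested. The change between stages was tested with limma's moderated test over 30367 probes, with Benjamini-Hochberg adjustment. Among them were 170 members, while 58 were left out as too dim. The 4 arrays of a stage shared a slide and a scan that held no other stage, and a stage difference and a slide difference cannot be told apart. The labels do not say that replicate arrays came from separate embryos or litters, so the p-values reflect only how far these samples lie apart, which may be technical spread.

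From E15.5 to E16.5, members more often fell than rose. Of the 170 members, 73 (42.9%) fell at an adjusted p under 0.05, where 33.3% of all probes tested did, and 26 (15.3%) rose, where 29.2% did. The median step of the 170 was -0.15, against -0.02 over all probes. Of the 228 members, 125 had more knockout than wild-type arrays well above background, the side on which the rule made them high. Some of the 170 thus passed the filter through knockout arrays, and their shares at both steps are a description beside all probes. Of the 60 read on all arrays, 30 of 60 fell and 14 (23.3%) rose, beside 38.5% and 31.7% of the probes read on all arrays, and the medians were -0.30 and -0.05.

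The largest falls at this step were those of Z00052090-1, Z00026847-1 and Z00059941-1. Z00052090-1 fell by 1.44 (SE 0.10, limma adjusted p 4.49e-07), from 1.11 and 1.497 to -0.47 and -0.44 in knockout and from 0.21 and 0.56 to -0.69 and -0.77 in wild type. Z00026847-1 fell by 1.17 (SE 0.10, limma adjusted p 2.47e-06), though its wild-type arrays at E16.5 were not well above background. Z00059941-1 fell by 1.13 (SE 0.07, limma adjusted p 3.68e-07), from 2.57 and 2.82 to 1.62 and 1.67 in knockout and from 2.45 and 2.38 to 1.14 and 1.29 in wild type. In these probes all arrays of both genotypes were lower at E16.5 than at E15.5.

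The largest rises were those of Z00074700-1, Z00011465-1 and Z00057850-1. Z00074700-1 rose by 0.93 (SE 0.07, limma adjusted p 8.63e-07), from -0.60 and -0.59 to 0.36 and 0.52 in knockout and from -1.14 and -0.95 to -0.19 and -0.25 in wild type. Z00011465-1 rose by 0.92 (SE 0.06, limma adjusted p 6.02e-07). Z00057850-1 rose by 0.89 (SE 0.06, limma adjusted p 3.58e-07), from -0.24 and -0.13 to 0.82 and 0.82 in knockout and from -0.65 and -0.73 to 0.09 and 0.09 in wild type. In these 3 probes all arrays of both genotypes were higher at E16.5 than at E15.5.

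From E16.5 to E17.5 fewer members changed. Of the 170, 28 rose, where 19.8% of all probes did, and 24 (14.1%) fell, where 11.9% did, with medians of 0.02 in both. Of the 60 read on all arrays, 14 (23.3%) rose and 12 fell, beside 22.8% and 14.0% of the probes read on all arrays. The 12 falls became 6 with the replicate number as a block. They became 5 without knockout E16.5 replicate 2 or without wild-type E17.5 replicate 1, 6 without wild-type E16.5 replicate 2, and 7 without either knockout array of E17.5.

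Z00056369-1 rose by 1.72 at this step (SE 0.15, limma adjusted p 1.97e-05) and Z00023605-1 by 1.20 (SE 0.06, limma adjusted p 7.00e-07), from 0.22 and 0.12 to 2.25 and 2.10 in knockout and from -0.44 and -0.41 to -0.01 and -0.05 in wild type. Z00016647-1 rose by 0.82 (SE 0.10, limma adjusted p 0.000175), from -5.10 and -4.87 to -4.26 and -3.86 in knockout and from -5.04 and -5.23 to -4.46 and -4.40 in wild type. All arrays of both genotypes were higher at E17.5 than at E16.5 in these 3 probes, and the step was wider in knockout in all 3, a difference that was not tested because the rule used it.

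The largest falls from E16.5 to E17.5 were smaller. Z00051539-1 fell by 0.91 (SE 0.21, limma adjusted p 0.00778) and Z00054637-1 by 0.64 (SE 0.08, limma adjusted p 0.000234), from 1.72 and 1.73 to 1.06 and 0.92 in knockout and from 1.00 and 1.31 to 0.56 and 0.68 in wild type. With Agilent's processed ratios these 2 calls were lost, at -0.21 and -0.77. Z00005714-1 fell by 0.65 (SE 0.21, limma adjusted p 0.0393). Its call was lost with the replicate block and without either knockout array of E17.5, either wild-type array of E17.5, or replicate 2 of either genotype at E16.5, where the step lay between -0.72 and -0.44.

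Taking both steps for the 60 members, 9 were called at neither. A fall with no later call was the most frequent course, in 18, and 6 fell at both steps, as Z00051539-1 did. Another 6 fell and then rose, among them Z00052090-1, which rose by 0.61 at the second step. A rise with no later call was seen in 7, a rise at both steps in 3, including Z00074700-1, and a rise followed by a fall in 4. The second step alone was called in 7, of which 5 rose and 2 fell. With the replicate number as a block, 12 were called at neither step, 21 fell with no later call, 4 fell at both steps, and 2 in place of 4 rose and then fell, Z00011465-1 and Z00057850-1 no longer among them.

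**Figure D4:**
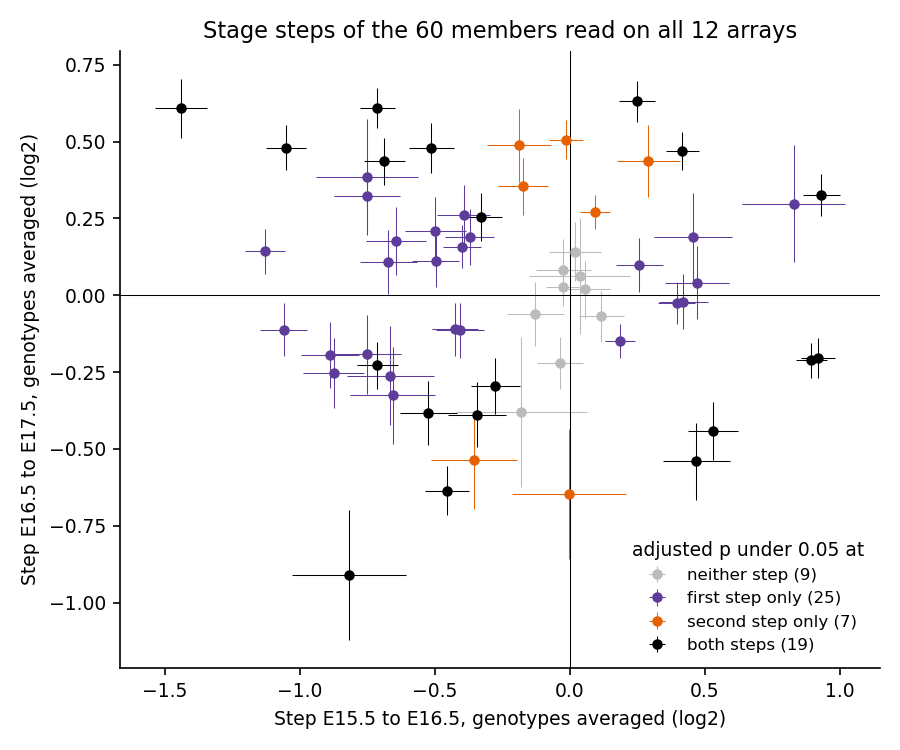
Each point is 1 of the 60 members read on all arrays, with the step from E15.5 to E16.5 on the x axis and from E16.5 to E17.5 on the y axis, both log2 and averaged over genotypes; bars are standard errors of the limma fit and colours mark at which step the adjusted p was under 0.05. More points lie left of 0 than right of it, 25 members were called at the first step only, 7 at the second only and 19 at both, before the replicate block, with which the falls at the second step went from 12 to 6.

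Overlapping probes gave a second reading for a few members. A stretch of at least 20 bases was shared with another probe of the array by 13 members, and 15 further probes that are not members shared one. Z00045122-1 differed by 0.48, 0.85 and 0.62 from the earliest to the latest stage, and Z00006580-1, which shares 30 bases with it and is outside the value table, by 0.51, 0.77 and 0.57. Both probes of that pair were apart between genotypes at each stage, and their mean ratios over the reference were 0.52 and 0.44. Z00076450-1 differed by 0.58, 0.18 and 0.17, and Z00057509-1, which shares 20 bases, by 0.43, 0.37 and 0.41. Among the 15, 2 were read on all arrays, the 2 just given. Differences above 0 at all stages were seen in 5 of the 15, among them Z00023674-1 with only 0.015 at E17.5. The share over all features was not counted, so the 5 are a description only.

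Z00060985-1, Z00032919-1 and Z00050391-1, all dim members, are linked by shared stretches, of 24 bases between the first and second and 22 between the second and the last. Their loess differences were 0.58, 0.55 and 0.60 at E15.5, and they ran from 0.02 to 0.15 at E16.5 and from -0.33 to -0.04 at E17.5. The authors' values put all 3 higher in knockout at each stage, from 1.16 to 3.09-fold. Because they share sequence, they may not be separate readings. Z00057507-1 and Z00058935-1, which are not members, share 34 bases with Z00032919-1 and were read on 0 and 1 array. In order of stage Z00057507-1 differed by 0.027, 0.02 and 0.127, and Z00058935-1 by -0.023, 0.097 and 0.025. At E15.5 both lay well under the 0.55 of Z00032919-1.

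In sequence the members resembled the rest of the table. Their median GC content was 43.3%, as over all features. AATAAA, read on the probe strand as written, was present in 17 members (7.46%, against 7.90% of features), ATTAAA in 8 (3.51%, against 3.37%) and either in 24, against 11.1% of features. A reading frame without a stop codon on the probe strand was found in 181 members (79.4%, against 82.0% of features). None lay wholly inside a RefSeq promoter window or miRNA hairpin of the tables used. By position on the array, 4 successive blocks of rows held 26.3%, 28.5%, 25% and 20.2% of the members and 24.4%, 25.6%, 25.5% and 24.5% of all features.

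At the limit of the rule, the members just inside were Z00058461-1, at the limit itself, Z00003534-1 (mean 0.1767 on the log10 scale) and Z00033785-1 (0.1772). Just outside, with each stage at 0.05 or higher, lay Z00054469-1, Z00048789-1 and Z00045150-1 (0.1757, 0.1754 and 0.1754). These 3 were read on 0 or 1 array and had mean loess differences from 0.04 to 0.06, while Z00058461-1 was read on all arrays and had 0.57. The condition on each stage alone was met by 972 further features and the condition on the mean alone by 117.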

How the data were processed

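Per the file headers, Agilent Feature Extraction 9.5.1.1 was used on every scan, and the deposited files give each spot's intensity and log10 ratio. The authors' value table is on a log10 scale with its method not given in the sources used here. Over 66 pairs of columns, its differences correlated from 0.899 to 0.993 across spots with those of the deposited ratios, turned to footpad over reference, and so its direction is known, while column medians ran from 2.556 to 2.588.

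Deposited mean intensity values were corrected with normexp (limma 3.58.1, R 4.3.3), offset 50, and normalized by loess with the 1417 control spots at weight 0. Outlier spots were dropped, and spots of a probe averaged as log2 ratios. Of 42006 probes, 11638 with fewer than 2 arrays well above background in Cy3 and 1 with no value in a group were not tested, and 30367 remained. Between 59.0% and 72.3% of probe spots per array were well above background, and 65.3% against 59.0% to 59.4% in wild-type E15.5 replicate 1 and the other arrays of that day. Group means were fitted with limma (6 residual and 4.71 prior degrees of freedom). The number of arrays limits the precision.

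Same-numbered knockout and wild-type arrays deviated together at E15.5 (correlation 0.61). The correlations of 0.25 at E16.5 and 0.16 at E17.5 were under the largest absolute correlation between stages, 0.38. Same-numbered arrays of all 3 stages were taken as pairs in an alternative fit with the replicate number as a block (correlation 0.397).

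The members and lists were chosen with earlier results of these data known. Named probes are the 10 members with the highest mean, the 3 largest rises and falls per step, the 3 highest and lowest over the reference, the 3 on either side of the limit, and members sharing sequence. Z00075857-1, Z00048440-1, Z00022566-1, Z00076265-1, Z00023185-1, Z00029205-1 and Z00026548-1 were chosen after their values were seen. Planned gene lists, markers and the targeted gene are not analysed here.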

Additional observations from a re-analysis of the deposited data

Results flagged for a closer look

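Of the 16976 probes outside the authors' value table, from which no member could be drawn, 10 met the limits of the rule with loess ratios, and 7 of these were read on all 12 arrays. In 6 of the 7 both knockout arrays lay above both wild-type arrays at every stage, which is why they are given here. Their mean differences on the log2 scale were 0.846 for Z00071822-1, 0.756 for Z00034687-1, 0.682 for Z00070374-1, 0.65 for Z00058145-1, 0.615 for Z00006580-1 and 0.586 for Z00024977-1. Z00071822-1 had group means of -0.99 (SD 0.16) against -1.60 (SD 0.05) at E15.5, -1.57 (SD 0.07) against -2.21 (SD 0.10) at E16.5 and -1.01 (SD 0.06) against -2.31 (SD 0.03) at E17.5, with n = 2 in each group. Z00034687-1 lay far below the reference in both genotypes, from -5.29 in knockout at E15.5 to -6.50 in wild type at E17.5. Z00058145-1 was higher at E16.5 than at E15.5 in both genotypes, from -1.70 to -0.20 in knockout and from -1.98 to -1.11 in wild type. These probes were picked by the same limits, so the differences carry no test.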

How the results depend on the processing

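Membership moved with the limits and the values. The 228 became 351 with a mean of at least 0.15, 147 with each stage at least 0.10 and 104 with both knockout arrays above both wild-type arrays. Leaving out 1 array gave 223 to 296, of which 163 to 207 were among the 228. The 36 features meeting the limits in loess ratios became 264 with Agilent processed log ratios (216 of them members) and 17 with median centring. For the 60 members read on all arrays, the median difference of 0.476 at E15.5 became 0.796 with Agilent ratios, 0.682 in the authors' table and 0.262 with median centring. The 0.436 at E16.5 became 0.658 in both of the former, 0.401 with median centring and 0.398 in Cy3 alone, and the 0.612 at E17.5 became 0.821, 0.821 and, in Cy3 alone, 0.577; these settings were chosen after seeing the data. The median level over the reference moved from 0.008 to -0.175 with Agilent ratios for all members and from 0.410 to 0.474 for the 60.

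Called probes at the first step fell from 18977 to 12609 in the authors' table, and at the second from 9631 to 5785, with 6334 to 11595 when 1 array was left out (6334 without knockout E17.5 replicate 2). Members called fell from 99 to 45 and from 52 to 26 when all 12 arrays had to be above background, which tests fewer members. The 12 falls of the second step became 6 with Agilent ratios, 6 with the replicate block and 5 to 12 with 1 array left out. With the block, a rise followed by a fall went from 4 to 2 of the 60 members read on all arrays. A fall at the second step alone, seen in 2 members without the block, was no longer called. The block ended the second-step calls of Z00005714-1, Z00011465-1 and Z00057850-1. The first step of Z00016647-1 (-0.473) became 0.327 with Agilent ratios, 0.327 in the authors' table and 0.003 with median centring. The second step of Z00026847-1 (0.052, not called) became -1.737 and -1.093 with the first 2 of these. The cause was not tested. The 58 members too dim to test have no stage result.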
